A study of Homo sapiens with 10 samples.

Results

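Genes that make cholesterol and fatty acids were compared between senescent and proliferating IMR90 cells, a finite-lifespan strain of human lung fibroblasts. The set holds 35 genes: 18 enzymes of the cholesterol pathway, 5 genes of the sterol-sensing switch, 8 fatty acid enzymes, the sterol carrier STARD4, the phosphatidate phosphatase LPIN1, and ABCA1 and MYLIP, targets of the oxysterol receptor LXR. Members were found by gene symbol, among probe sets that the platform annotation ties to exactly 1 gene. This gave 78 probe sets of 32 genes, out of 19775 genes on the array. A probe set is a group of short array probes that together give 1 value for a transcript. CYP51A1 and FADS1 were only on probe sets with several symbols, and FDFT1 was on none of those listed. MVK, MVD, TM7SF2 and SREBF1 did not rise above the low-signal filter and were not tested, which left 28 of 12909 tested genes.

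The 5 senescent arrays came from IMR90 cells at 90 population doublings, which had been passaged to the end of growth and then kept in dishes for 2 weeks. The 5 proliferating arrays came from IMR90 cells at 28 population doublings. All were cultured in DMEM with 10% serum and antibiotics at 3% oxygen, and all carry the genome of 1 cell strain. The groups differ together in doublings, in growth state and in the time held without division, and these cannot be told apart here. Whether the 5 arrays of a group stem from separate cultures is not said in the labels, so each p-value reflects only how these samples scatter, which may be technical scatter.

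Cells make cholesterol from acetyl-CoA in a chain of enzymes in the cytosol and endoplasmic reticulum. The first stretch builds mevalonate and then isoprenoid units, the second joins them into squalene, closes the rings as lanosterol and trims lanosterol to cholesterol. Most of these genes are switched on by SREBP-2, the product of SREBF2, and fatty acid genes more by SREBP-1, the product of SREBF1. SCAP escorts the SREBPs from the endoplasmic reticulum to the Golgi for cleavage, and INSIG1 and INSIG2 hold SCAP back when sterols are plentiful. In the nucleus SREBPs bind the sterol regulatory element, usually beside the CCAAT box bound by NF-Y or the GC box bound by Sp1. Oxysterols work the other way through LXR, which raises cholesterol export.

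Promoters of 4 members are shown. Only that of SREBF2 carries the letters of the sterol regulatory element. Those of MSMO1, SC5D and EBP, genes that moved most or against the rest, carry the CCAAT box without these letters. Windows span 250 bases before to 50 after the annotated start, from RefSeq on GRCh38.p14, and 31 of the 35 members had at least 1, in 43 windows. Capitals mark the sterol regulatory element letters TCACNCCAC and the CCAAT box, each searched on both strands, so ATTGG is CCAAT read from the other strand. SREBF2 was printed for its match to the element. MSMO1, SC5D and EBP were chosen after their values were seen. The windows lie at chr22:41832855-41833154 for SREBF2, chr4:165327419-165327718 for MSMO1, chr11:121292602-121292901 for SC5D and chrX:48521558-48521857 for EBP, all on the plus strand. SC5D has a second annotated start, whose window overlaps this one.
SREBF2: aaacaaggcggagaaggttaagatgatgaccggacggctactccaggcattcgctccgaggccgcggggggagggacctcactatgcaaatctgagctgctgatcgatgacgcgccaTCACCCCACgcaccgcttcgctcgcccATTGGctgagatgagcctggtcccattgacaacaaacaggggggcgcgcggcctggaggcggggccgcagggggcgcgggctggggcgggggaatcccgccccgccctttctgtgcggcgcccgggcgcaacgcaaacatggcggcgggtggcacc
MSMO1: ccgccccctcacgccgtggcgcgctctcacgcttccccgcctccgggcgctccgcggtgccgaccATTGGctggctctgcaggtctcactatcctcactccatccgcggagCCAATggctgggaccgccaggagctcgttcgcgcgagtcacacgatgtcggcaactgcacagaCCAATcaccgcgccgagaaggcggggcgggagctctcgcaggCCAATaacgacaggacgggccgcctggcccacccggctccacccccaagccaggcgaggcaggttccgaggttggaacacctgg
SC5D: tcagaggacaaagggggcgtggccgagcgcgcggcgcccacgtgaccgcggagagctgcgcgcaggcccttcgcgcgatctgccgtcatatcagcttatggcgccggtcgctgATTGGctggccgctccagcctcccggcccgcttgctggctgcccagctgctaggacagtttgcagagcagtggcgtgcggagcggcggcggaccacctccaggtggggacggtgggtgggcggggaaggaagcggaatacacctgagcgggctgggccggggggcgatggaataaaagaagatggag
EBP: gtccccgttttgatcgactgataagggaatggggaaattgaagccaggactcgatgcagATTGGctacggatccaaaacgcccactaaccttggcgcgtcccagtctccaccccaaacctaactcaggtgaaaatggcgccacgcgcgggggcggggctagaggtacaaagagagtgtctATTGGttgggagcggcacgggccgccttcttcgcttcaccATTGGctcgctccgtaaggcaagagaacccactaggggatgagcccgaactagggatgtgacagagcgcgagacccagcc

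Among the 31 members with a window, only SREBF2 held the sterol regulatory element letters; ACAT2, FASN, FDFT1 and SQLE had no window. Its match begins at -133 from the start, and a CCAAT box follows with its first base at -106, 27 bases on. The letters were found in 1.13% of all 35116 windows, and 1 of 43 member windows is 2.33%. CCAAT is commoner in the set: it lay in 26 of 43 member windows (60.47%) and in 15 of 20 cholesterol synthesis windows (75.0%), against 34.69% of 22199 protein-coding windows. MSMO1 holds 4 CCAAT boxes and EBP 3, although MSMO1 rose and EBP fell. Windows of genes that rose held CCAAT in 15 of 24 cases (62.5%) and windows of genes that fell in 5 of 6 (83.33%). The GC box GGGCGG was in 37 of 43 member windows (86.05%), against 56.28% of protein-coding windows, and the E-box CACGTG in 7 (16.28%), against 8.34%. None of these motifs contains another. The matches describe letters in these windows and do not show binding. Only exact matches were counted, so an element with other letters or outside the window would be missed. A missing match therefore does not show that a promoter lacks a sterol regulatory element.

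Arrays were most alike within their own group. Correlations between arrays ran from 0.992 to 0.997 within a group and from 0.940 to 0.947 between groups, and array medians from 3.05 to 3.12 on the log2 scale. LMNB1, the lamin lost in senescence, averaged 5.42 ± 0.36 in senescent and 10.93 ± 0.09 in proliferating cells (SD, n = 5 each). CDKN2A, which encodes p16, averaged 7.63 ± 0.18 in senescent and 4.43 ± 0.96 in proliferating cells. All 12 fibroblast markers lay above the 60th percentile of every array, while 5 of 5 leukocyte, 6 of 7 endothelial and 6 of 7 adipocyte markers lay below it on every array. Epithelial markers summed to 24.5 to 25.8 in senescent and 28.1 to 28.5 in proliferating cells, with 4 of 7 below that percentile on every array. Smooth muscle markers summed to 44.1 to 45.3 in senescent and 46.0 to 47.9 in proliferating cells, with 5 of 7 above it on every array. Among epithelial markers EPCAM differed by -2.31 and KRT19 by -1.26, while SFTPC was higher by 0.34. Among smooth muscle markers MYOCD differed by -2.77, while ACTG2 and LMOD1 were higher by 0.53 and 0.73. MYH11 differed by -0.72 on its probe set of highest mean, while its other tested probe sets differed by 0.27, 0.71 and 0.55. Endothelial markers summed to 23.8 to 24.2 in senescent and 22.9 to 23.5 in proliferating cells. TEK was higher by 0.62 on its probe set of highest mean, but its other probe set differed by -1.08, so its direction is unsettled. The part of these 3 lists in the results was not tested. Signal of the ACTB control was more tilted to the 3' end in senescent cells, where 3' minus 5' was 2.24 to 2.47, than in proliferating cells, where it was 1.85 to 2.19.

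The cholesterol genes were for the most part higher in senescent cells, and the fatty acid genes were split. Over the 28 tested members 16 rose, 6 fell and 6 did not pass the test (limma, Benjamini-Hochberg adjustment, threshold 0.05). Over all tested genes 60.2% were called, 30.5% higher and 29.8% lower, so being called is common in this comparison and a single call says little about the set. A difference of at least 2-fold, which is 1 on the log2 scale, was less common, at 10.0% of genes higher and 10.2% lower. Read by the probe set of highest mean, 7 members were that much higher and 0 that much lower, with SCD the lowest at -0.64. The other probe sets of SCD differed by -0.998, -1.01 and -1.13, so the count of 0 depends on that choice of probe set. The median difference, senescent minus proliferating, was 0.39 over the members and 0.04 over all tested genes. All senescent arrays lay above all proliferating arrays for 14 members, which held for 26.7% of all genes, and below them for 4 members, against 25.1%. RNA was pooled over each culture, so fewer cells expressing a gene and less RNA per cell cannot be told apart.

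**Figure D1:**
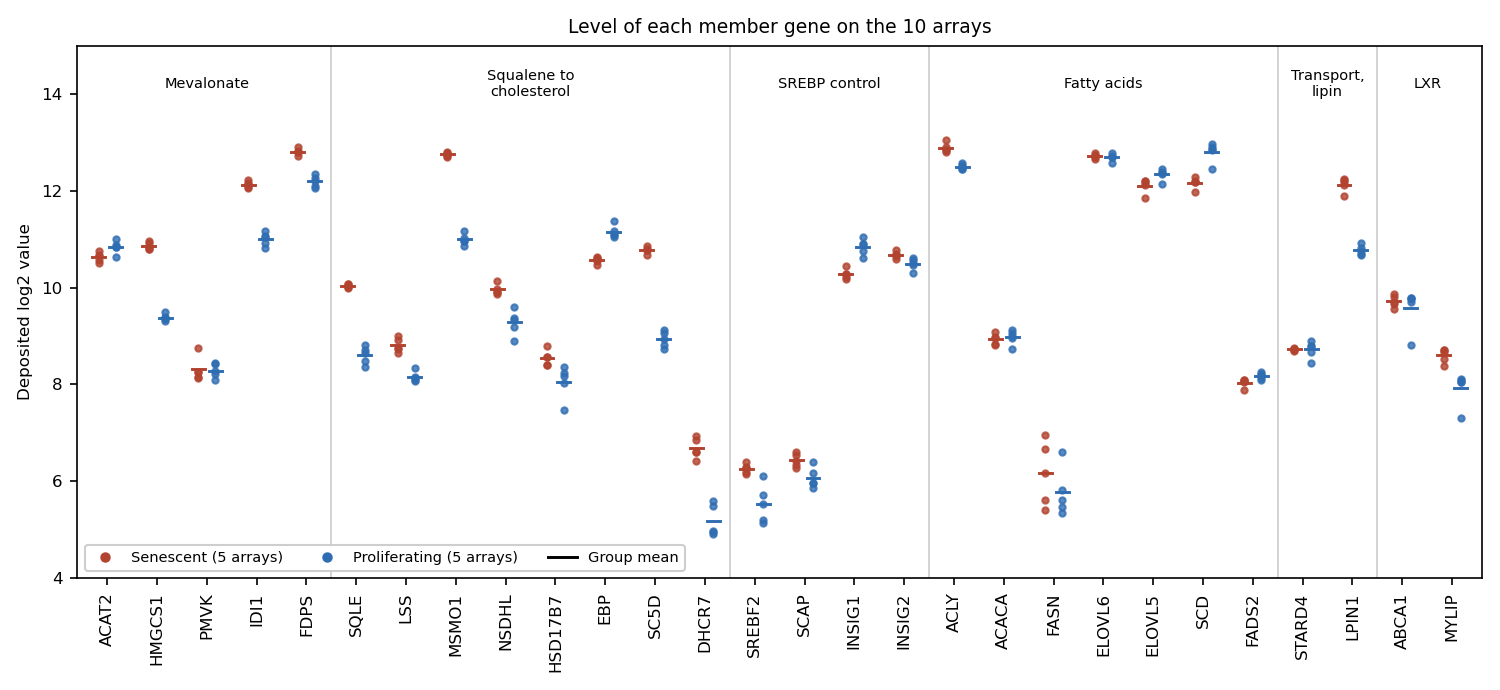
Deposited log2 value of the 28 tested members on each array, with genes along the horizontal axis in pathway order and the level on the vertical axis. Each point is 1 array, senescent left of proliferating, and bars are group means of 5 arrays. The groups stand clear of each other for SC5D, MSMO1, HMGCS1, SQLE and IDI1, with senescent higher, and for EBP, INSIG1 and SCD, with senescent lower.

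The early steps of the cholesterol pathway were led by HMGCS1, which makes HMG-CoA from acetyl-CoA units. Its values (probe set 221750_at) were 10.80, 10.79, 10.95, 10.93 and 10.83 on senescent arrays 1 to 5, against 9.35, 9.38, 9.31, 9.49 and 9.37 on proliferating arrays 1 to 5. Every senescent array was far above every proliferating one, and the arrays of a group lay close together. The difference was 1.48 ± 0.05 (SE), or 2.79-fold, with an adjusted p of 6.40e-09 from limma. The second probe set of HMGCS1 differed by 1.95 in the same direction.

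IDI1, the isomerase that turns one 5-carbon isoprenoid building block into the other, behaved alike on its main probe set. This probe set (208881_x_at) read 12.22, 12.16, 12.13, 12.07 and 12.05 on the senescent arrays, against 11.04, 10.92, 11.06, 10.82 and 11.17 on the proliferating arrays. The groups did not overlap, and the difference was 1.12 ± 0.07 (2.18-fold, adjusted p = 3.38e-07). Its name marks probes that may also bind other transcripts. Of the other 3 probe sets of IDI1, 204615_x_at differed by 1.10 and was called higher, 242065_x_at by 0.02 without passing the test, and 233014_at, of much lower signal, by -0.30 and was called lower (adjusted p = 0.0035). IDI1 was the only member whose probe sets were called in opposite directions, so its rise rests on the probe sets that may be shared.

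FDPS, which builds farnesyl diphosphate from these units, rose by 0.61 ± 0.06 (SE), averaging 12.81 ± 0.06 in senescent and 12.20 ± 0.12 in proliferating cells (SD, n = 5 each). ACAT2, the thiolase that joins acetyl-CoA units at the head of the pathway, was lower by a little: 10.63 ± 0.09 in senescent and 10.84 ± 0.13 in proliferating cells, a difference of -0.21 with an adjusted p of 0.032. The groups overlapped for ACAT2, and its call was lost on leaving out any 1 of 7 arrays. PMVK, the second mevalonate kinase, differed by 0.02 and did not pass the test, with a 95% interval of -0.25 to 0.30. In this stretch 3 of 5 tested genes rose, 1 fell and 1 did not pass, with a median difference of 0.61. Of all tested genes 30.5% rose and 29.8% fell.

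The stretch from squalene to cholesterol moved most. Of 8 tested genes 7 rose and 1 fell, against 30.5% and 29.8% of all tested genes, with a median difference of 1.06. SQLE, which oxidises squalene and is a rate-limiting step, read 10.07, 10.08, 9.98, 10.03 and 10.02 on the senescent arrays, against 8.65, 8.35, 8.81, 8.71 and 8.47 on the proliferating arrays. No proliferating array came near the senescent ones. The difference was 1.44 ± 0.08 (2.71-fold, adjusted p = 2.18e-07), and 2 further probe sets of SQLE differed by 1.41 and 1.47 while the dimmest differed by 0.17 and was not called. LSS, which folds the oxidised squalene into the ring system of lanosterol, rose by 0.66 ± 0.08, and all 3 of its probe sets were called higher.

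MSMO1 and SC5D had the largest differences of the set. MSMO1, the oxidase that starts removal of the paired methyl groups at one carbon of the sterol ring, read 12.77, 12.73, 12.70, 12.77 and 12.80 on the senescent arrays, against 10.86, 10.95, 10.96, 11.02 and 11.16 on the proliferating arrays. The senescent arrays were nearly level with each other (SD 0.04) and all far above the proliferating ones (SD 0.11). This was a difference of 1.76 ± 0.06 on the single probe set 209146_at, or 3.39-fold, with an adjusted p of 3.51e-09.

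SC5D, a desaturase near the end of the pathway, read 10.67, 10.80, 10.78, 10.77 and 10.86 on the senescent arrays, against 8.94, 8.74, 9.13, 8.82 and 9.05 on the proliferating arrays. Again the groups stood apart by many times their spread. Its difference was 1.84 ± 0.08 (3.58-fold, adjusted p = 2.31e-08) on 211423_s_at and 1.46 on the second probe set.

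DHCR7, the reductase that turns the product of SC5D into cholesterol, read 6.85, 6.92, 6.42, 6.61 and 6.60 on the senescent arrays, against 4.94, 4.90, 4.97, 5.48 and 5.59 on the proliferating arrays. Its arrays scattered more within each group than those of SC5D, without overlap between the groups. The difference was 1.51 ± 0.16 (2.84-fold, adjusted p = 2.10e-05), and its second probe set differed by 1.65. NSDHL and HSD17B7, which work after MSMO1 in the removal of the same methyl groups, rose by 0.68 ± 0.12 and 0.49 ± 0.16. HSD17B7 was the weakest call of this stretch (adjusted p = 0.024): its lowest senescent array was 8.39 and its highest proliferating array 8.35, and the call was lost without senescent array 4 (adjusted p = 0.058). The call was also lost with the ACTB 3' minus 5' difference as a covariate in limma (adjusted p = 0.44). HSD17B7 was read by the single probe set 220081_x_at, whose name marks probes that may also bind other transcripts.

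EBP went the other way within this run of enzymes. It encodes the isomerase that moves a ring double bond just before SC5D acts. EBP read 10.55, 10.62, 10.47, 10.59 and 10.63 on the senescent arrays, against 11.16, 11.10, 11.08, 11.05 and 11.37 on the proliferating arrays. Every senescent array was below every proliferating one, and the difference was -0.58 ± 0.07 (adjusted p = 3.18e-05). All 3 tested probe sets of EBP were called lower, the other 2 at -0.77 and -0.71.

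**Figure D2:**
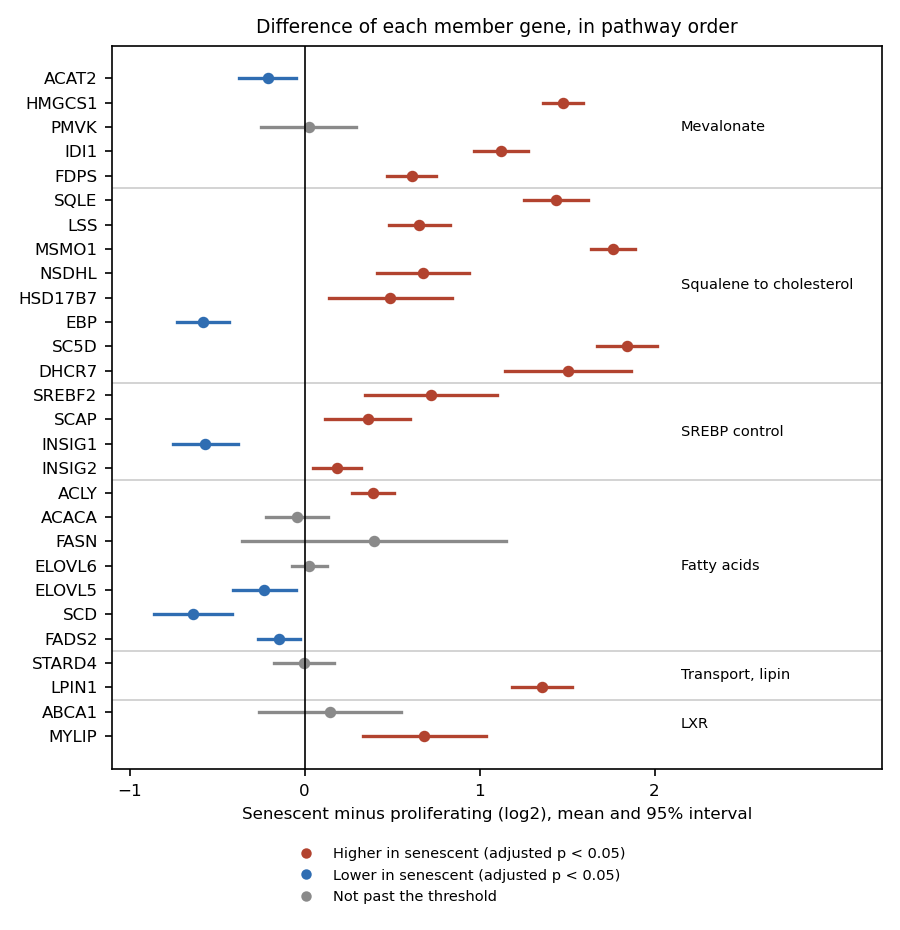
Difference of each tested member, senescent minus proliferating, on the log2 scale along the horizontal axis, with genes in pathway order from top to bottom. Points are mean differences of 5 against 5 arrays and bars their 95% intervals from limma, red where higher, blue where lower and grey where the test was not passed. The cholesterol enzymes reach 1.84 at SC5D, with EBP at -0.58 among them, while the fatty acid genes lie between -0.64 and 0.40. Each gene is read on its probe set of highest mean, and the other probe sets of SCD lie lower.

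Together 10 of the 13 tested cholesterol enzymes rose, 2 fell and 1 did not pass, against 30.5% higher and 29.8% lower over all tested genes. Of the 13, 6 were higher by at least 2-fold, against 10.0% of all tested genes, and the median difference was 0.68. The count of enzymes that rose was added after the values were seen. With the ACTB 3' minus 5' difference as a covariate, 9 of these enzymes were called higher and 1 lower, and the calls of HSD17B7 and ACAT2 were the ones lost. The groups did not overlap in this covariate, so tilt and group cannot be told apart in fits that use it.

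The genes of the sterol switch moved in both directions. SREBF2 read 6.14, 6.28, 6.19, 6.29 and 6.39 on the senescent arrays, against 5.72, 6.10, 5.19, 5.52 and 5.14 on the proliferating arrays. The senescent arrays were tight and all higher, although proliferating array 2 came close to the lowest of them. SREBF2 rose by 0.72 ± 0.17 (adjusted p = 0.0043) on this probe set (201247_at), while its 2 other probe sets did not pass the test. Of these, 201248_s_at differed by 0.09, at 5.50 in senescent and 5.41 in proliferating cells. The other, 242748_at, differed by -0.13 at low signal (2.96 and 3.09) and says little. The rise of SREBF2 therefore depends on whether 201247_at or 201248_s_at is read. SREBF1 was read by 2 probe sets at 2.10 and 2.46 in senescent and 2.12 and 2.51 in proliferating cells, below the 40th percentile of every array.

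SCAP, the escort, read 6.60, 6.53, 6.34, 6.41 and 6.27 on the senescent arrays, against 6.17, 6.40, 5.86, 5.96 and 5.97 on the proliferating arrays. The groups overlapped through proliferating array 2, and SCAP rose by 0.36 ± 0.11 (adjusted p = 0.017). Centring the arrays on housekeeping genes ended this call (adjusted p = 0.059).

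INSIG1, the retention factor that is itself a well-known SREBP target, was lower in senescent cells. It read 10.44, 10.19, 10.29, 10.27 and 10.21 on the senescent arrays, against 10.89, 10.76, 11.05, 10.91 and 10.62 on the proliferating arrays. The groups did not overlap. INSIG1 differed by -0.57 ± 0.08 (adjusted p = 0.00022), and all 3 of its probe sets were called lower, at -0.31, -0.57 and -0.72.

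INSIG2, which shares the retention role, read 10.78, 10.67, 10.66, 10.60 and 10.68 on the senescent arrays, against 10.60, 10.50, 10.58, 10.47 and 10.31 on the proliferating arrays. The groups overlapped slightly, at senescent array 4 and proliferating array 1. INSIG2 rose by 0.18 ± 0.06 (adjusted p = 0.028), a call lost with housekeeping centring (0.10, adjusted p = 0.40) and with the ACTB covariate (0.11, adjusted p = 0.40). Among the 4 tested regulators 3 rose and 1 fell, against 30.5% and 29.8% of all tested genes.

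Fatty acid synthesis showed no common direction: of 7 tested genes 1 rose, 3 fell and 3 did not pass, with a median difference of -0.04. Of all tested genes 30.5% rose and 29.8% fell. ACLY, which supplies acetyl-CoA from citrate to both pathways, averaged 12.89 ± 0.10 in senescent and 12.50 ± 0.06 in proliferating cells (SD, n = 5 each), a rise of 0.39 ± 0.05 (SE). All 3 of its probe sets were called higher. ACACA, the carboxylase that commits acetyl-CoA to fatty acids, differed by -0.04, with a 95% interval of -0.22 to 0.14.

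FASN, the synthase that builds palmitate, read 5.41, 6.95, 5.61, 6.16 and 6.67 on the senescent arrays, against 5.34, 5.61, 5.82, 5.46 and 6.59 on the proliferating arrays. The groups overlapped widely, and the 95% interval of its difference of 0.40 ran from -0.36 to 1.15, so a change of 2-fold up is inside what these arrays allow (adjusted p = 0.35). ELOVL6, which lengthens palmitate, differed by 0.03 on its main probe set and 0.04 on another, while 227491_at was called higher at 0.44.

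SCD, the desaturase that makes oleate and palmitoleate and is a target of both SREBP-1 and LXR, had the largest fall of the set. SCD read 12.29, 12.18, 12.17, 12.20 and 11.97 on the senescent arrays, against 12.84, 12.86, 12.90, 12.96 and 12.44 on the proliferating arrays. All senescent arrays lay lower, and array 5 was the lowest of each group. The difference was -0.64 ± 0.10 (adjusted p = 0.00033), and the other 3 probe sets were further down, at -0.998, -1.01 and -1.13. ELOVL5, an elongase of polyunsaturated chains, differed by -0.23 ± 0.08 (adjusted p = 0.036) and FADS2, the delta-6 desaturase, by -0.15 ± 0.05 (adjusted p = 0.042).

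ELOVL5 and FADS2 were weakly called. A second probe set of ELOVL5 differed by 0.04 and was not called. Its signal was low, at 2.78 in senescent and 2.74 in proliferating cells, so it says little about the call. Without proliferating array 1 or without proliferating array 4, only EBP, INSIG1 and SCD were still called lower, 3 members in place of 6, which left 1 of the fatty acid genes.

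LPIN1, which turns phosphatidate into diacylglycerol on the way to storage lipids, behaved like the sterol enzymes. It read 12.24, 12.21, 12.13, 12.17 and 11.88 on the senescent arrays, against 10.91, 10.68, 10.81, 10.69 and 10.75 on the proliferating arrays. The groups stood well apart. LPIN1 rose by 1.36 ± 0.08 (2.56-fold, adjusted p = 1.86e-07), and its 2 other probe sets by 1.74 and 1.66. STARD4, a soluble carrier that moves cholesterol between membranes, averaged 8.72 ± 0.02 in senescent and 8.72 ± 0.18 in proliferating cells (SD, n = 5 each), with a 95% interval of the difference from -0.18 to 0.17.

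**Figure D3:**
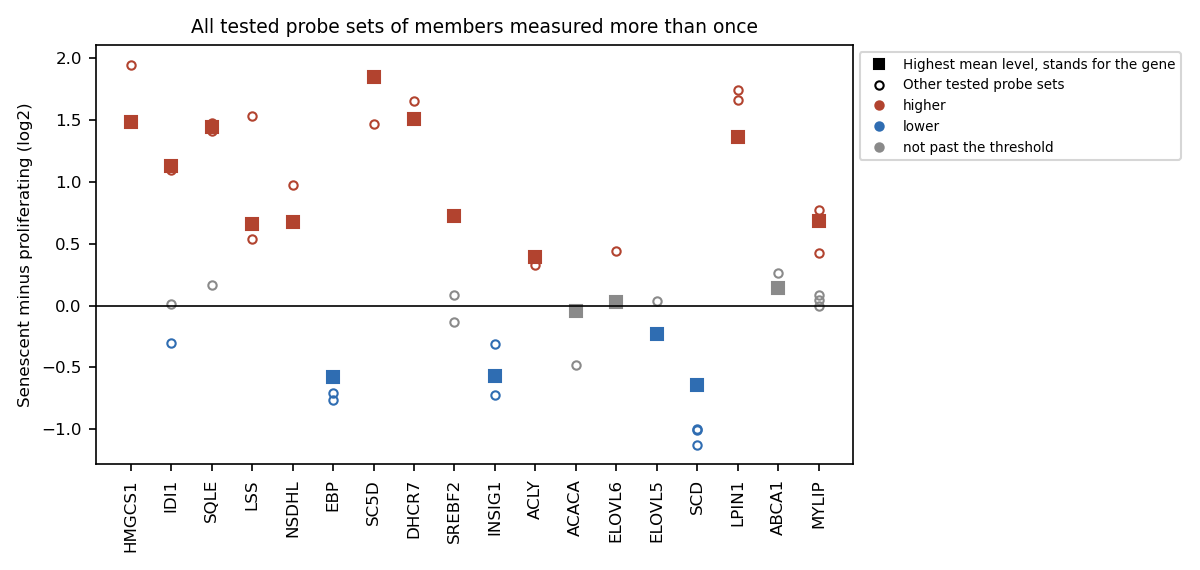
Difference of every tested probe set of the 18 members measured by more than 1, senescent minus proliferating on the log2 scale, with genes along the horizontal axis. The square is the probe set of highest mean level, which stands for the gene, and open circles are the others. For 10 of the 18 genes all probe sets were called in the same direction, and IDI1 has calls on both sides of 0.

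Read by probe set instead of by gene, 32 of the 63 tested probe sets of members were called higher, 14 lower and 17 not. Over all tested probe sets 26.9% were called higher and 26.2% lower. Their median difference was 0.33, against 0.03 over all tested probe sets. Of the 18 members with several tested probe sets, 10 had all of them called in the same direction, 6 had called and not called ones, 2 had none called and 1 had opposite calls; the gene with opposite calls also counts among those with called and not called ones.

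The 2 LXR targets each had the same proliferating array standing apart. ABCA1, the pump that loads cholesterol onto apolipoproteins, read 9.86, 9.55, 9.81, 9.71 and 9.65 on the senescent arrays, against 9.76, 9.79, 9.70, 9.79 and 8.82 on the proliferating arrays. Proliferating array 5 was far below the rest, which overlapped with the senescent arrays. ABCA1 did not pass the test at a difference of 0.14 (95% interval -0.26 to 0.55), and without proliferating array 5 the difference was -0.05.

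MYLIP, a ubiquitin ligase that sends lipoprotein receptors for degradation, read 8.72, 8.72, 8.37, 8.53 and 8.67 on the senescent arrays, against 8.05, 8.04, 8.12, 8.08 and 7.30 on the proliferating arrays. The groups did not overlap, and proliferating array 5 was again lowest. MYLIP rose by 0.68 ± 0.16 (adjusted p = 0.0040) and by 0.53 without that array. With the ACTB covariate, in which the groups did not overlap, the difference of MYLIP was 0.71 and the call was lost (adjusted p = 0.050). The difference of MYLIP did not shrink in that fit. Of its 6 probe sets 3 were called higher, at 0.68, 0.77 and 0.43, and 3 were not called, at 0.09, 0.04 and -0.0002. The 3 called probe sets all have names that mark possible sharing of probes with other transcripts.

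ABCG1, a sterol exporter and LXR target outside the set, showed the same array still more clearly. It read 4.87, 4.74, 5.10, 5.04 and 5.30 on the senescent arrays, against 8.30, 7.96, 8.17, 8.16 and 5.58 on the proliferating arrays. The difference was -2.62 ± 0.48 (adjusted p = 0.00092), with proliferating array 5 just above the senescent arrays. SCD too was lowest on array 5 in each group. These genes are shown together because array 5 was low in them, so their number is no evidence about LXR targets in general. SMPDL3A was lowest on that array at 7.94, close to proliferating array 2 at 8.00, LPCAT3 was not lowest there, at 8.55, and FASN was highest there. Proliferating array 5 was also lowest of its group for the fibroblast markers COL1A1, COL1A2, COL3A1, COL6A3, FN1, LUM, PDGFRA and S100A4. There it read 13.67 for COL3A1 (next 13.99) and 10.10 for LUM (next 10.40). DCN, PDGFRB and THY1 were not lowest there, and VIM was highest there, all on probe sets of highest mean. The low array is therefore not particular to LXR targets. What set this array apart was not tested.

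**Figure D4:**
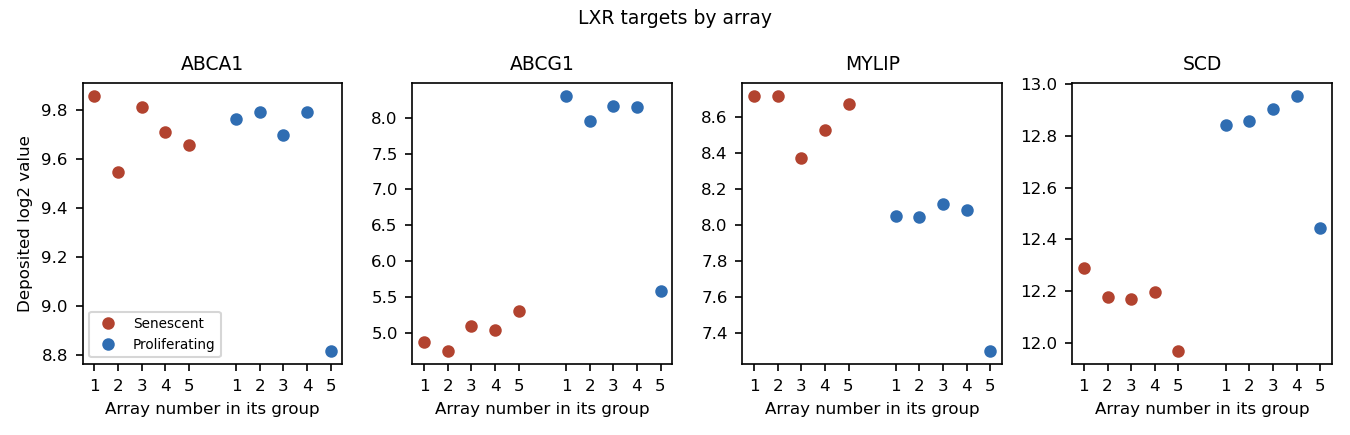
Deposited log2 value of ABCA1, ABCG1, MYLIP and SCD, known LXR targets chosen after their values were seen, on the vertical axes, for each array on the horizontal axes, senescent left of proliferating. Each point is 1 array, and the vertical axes differ and do not start at 0. Proliferating array 5 is the lowest of its group for all 4 genes, at 8.82 for ABCA1 and 5.58 for ABCG1. It was also the lowest for several fibroblast markers, COL3A1 and LUM among them, which are not shown.

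Lists of neighbouring lipid genes give the surroundings of the set. Over all tested genes 30.5% were called higher and 29.8% lower, and a count near these shares says little about a list. The remaining sterol enzymes were mixed, with 3 of 5 tested genes higher and 1 lower. LBR, which is both the lamin B receptor of the nuclear envelope and a sterol reductase, differed by -2.20 ± 0.04, the largest fall among enzymes of the sterol route measured here. HSD17B12 rose by 0.93, TMEM97 by 0.74 and ERG28 by 0.15. Housekeeping centring, the ACTB covariate and several other alternatives gave 2 higher in place of 3. In the isoprenoid branch 4 of 12 rose and 3 fell: COQ2 and PDSS1, which start coenzyme Q synthesis, each differed by -1.28 and NUS1 by -0.20, while FNTA rose by 0.62, DHDDS by 0.57 and GGPS1 by 0.52. Housekeeping centring moved the counts of that branch to 3 higher and 5 lower.

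Of 22 genes of sterol uptake, trafficking and efflux 9 rose and 3 fell, against 30.5% and 29.8% of all tested genes. NPC1, which carries cholesterol out of lysosomes, read 11.12, 11.12, 11.04, 10.90 and 11.01 on the senescent arrays, against 8.80, 8.54, 8.73, 8.84 and 8.66 on the proliferating arrays. NPC1 rose by 2.33 ± 0.07 (5.01-fold), with no overlap, and its lysosomal partner NPC2 by 0.97. LRP1 rose by 0.70, while VLDLR differed by -1.18 and OSBPL9 by -0.75. With the ACTB covariate 5 of this list were called higher, and also 5 without possibly shared probe sets.

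Genes that process or degrade SREBPs and their partners were called higher in 4 of 15 cases and lower in 6. The shares over all tested genes were 30.5% and 29.8%. MBTPS2 and MBTPS1, the Golgi proteases that cut SREBPs, rose by 0.76 and 0.67, and ERLIN2 by 0.48. NFYB, a subunit of the CCAAT-binding factor, differed by -1.12, SP1 by -0.85 and ERLIN1 by -0.81. Among LXR and its partners 3 of 6 rose, led by RXRB at 0.96, SMPDL3A at 0.57 and RXRA at 0.18. The other calls were LPCAT3 at -0.27 and NR1H3, which encodes LXR-alpha, at -0.18 with low signal in both groups (2.96 in senescent and 3.14 in proliferating cells). With the ACTB covariate 2 of this list were called, both higher.

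Elongases, desaturases and activating enzymes outside the set rose in 8 of 19 cases and fell in 4, against 30.5% and 29.8% of all tested genes. SCD5, the second stearoyl-CoA desaturase, rose by 1.73, opposite to SCD: it read 11.87, 11.85, 11.96, 11.98 and 11.65 on the senescent arrays, against 10.13, 10.02, 10.26, 10.14 and 10.11 on the proliferating arrays. FADS3 rose by 1.59 and ME1, a source of NADPH, by 1.24. ELOVL2, an elongase of very long polyunsaturated chains, read 3.50, 3.58, 4.54, 3.57 and 3.54 on the senescent arrays, against 8.96, 8.81, 8.80, 9.05 and 8.98 on the proliferating arrays. Its senescent level is in the low-signal range, so the difference of -5.17 depends on the background correction. HACD4 differed by -1.87 and MID1IP1 by -0.83. With the ACTB covariate 5 of this list were called higher and 2 lower.

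Glycerolipid genes rose in 5 of 15 cases and fell in 3, against 30.5% and 29.8% of all tested genes. PNPLA3 rose by 1.38, MGLL by 1.11 and LPIN2, a relative of LPIN1, by 0.93, while AGPAT5, an acyltransferase upstream of the lipins, differed by -3.16, AGPAT4 by -1.38 and HILPDA by -1.32. In fatty acid oxidation 7 of 22 rose and 5 fell, against the same shares. The carnitine carrier SLC25A20 rose by 1.78 and CPT1A, the gatekeeper of mitochondrial oxidation, by 0.99, while HADH differed by -0.70, PPARG by -0.63 and EHHADH by -0.58. PDK4 rose by 1.22 at low signal in both groups. Without possibly shared probe sets the oxidation list had 8 genes higher and 2 lower, and the glycerolipid list 3 higher and 3 lower. Medians of these 8 lists lay between -0.08 and 0.25, against 0.68 for the cholesterol enzymes of the set and 0.04 for all tested genes.

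**Figure D5:**
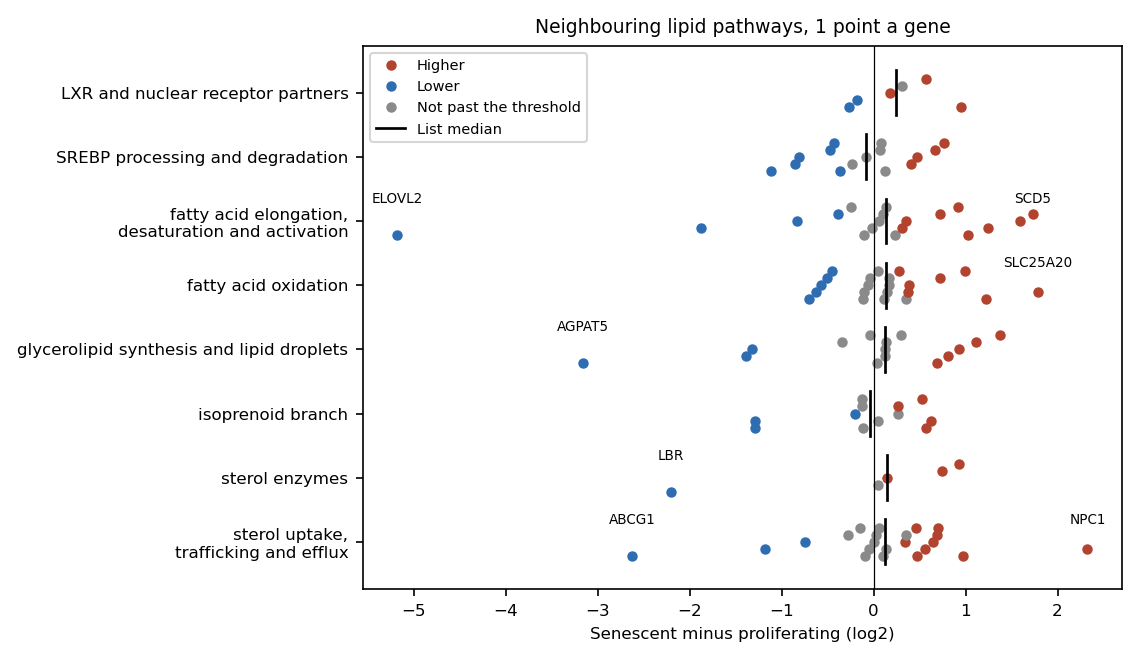
Difference of the tested genes of 8 neighbouring lipid pathways, senescent minus proliferating on the log2 scale along the horizontal axis, with 1 row a list. Points are genes, shifted up and down within a row only for sight, red where higher, blue where lower and grey where the test was not passed, and black bars are list medians. List medians stay between -0.08 and 0.25, while single genes reach 2.33 at NPC1 and -5.17 at ELOVL2.

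Averaged over the members, the arrays of a group lay closer together than the groups did, which did not hold for each gene, FASN and ABCA1 among the exceptions. The mean over the 28 tested members lay between 9.89 and 9.998 on the senescent arrays, and between 9.41 and 9.51 on the proliferating arrays. Proliferating array 2 was the lowest of its group for 11 of 28 members and senescent array 1 the highest of its group for 12. Proliferating array 5 was the highest of its group for 10 members and the lowest for 8, among them the LXR targets ABCA1 and MYLIP.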

How the data were processed

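Biotin-labelled total RNA was measured on 10 Affymetrix HG-U133 Plus 2.0 arrays, as the labels state. The authors deposited 1 log2 value for each of 54675 probe sets on each array. Partek and GCRMA are named, without version, role or order, per the submitters' processing notes, with settings not given in the sources used here. That the scale is log2 was inferred from the values. GCRMA estimates background from probe sequence, which bears most on low values. Scan dates were not used here.

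Probe sets were named from the platform annotation, and gene identifiers looked up in RefSeq GRCh38.p14 gave current symbols for 41037 of the 41091 with 1 symbol. The 62 controls were left out. Probe sets above their array's 40th percentile on at least 5 arrays, 32732 in all, were fitted with lmFit and eBayes (limma 3.58.1, R 4.3.3), two-sided, with p-values adjusted over all of them, and the one of highest mean stood for a gene. For single genes an exact permutation test over 252 assignments cannot go below 0.00794, which all members without overlap reached. Motifs and figures used Python 3.11.15. The fit was tested on simulated data. All members were named, with array values for those differing by at least 1 and for the regulators, and up to 3 called genes a direction of each other list; values of further genes were chosen after they were seen. The members, lists and markers were chosen with earlier results of these data known. Same-numbered arrays did not deviate together (correlations from -0.057 to 0.091), so they were not treated as pairs.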

Additional observations from a re-analysis of the deposited data

Results flagged for a closer look

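Of 56 groups of 5 arrays (28 members, senescent and proliferating), 7 held an array apart from the other 4, or 12.5%, where chance gives about 5%. All members were read on the same 10 arrays, so these groups are not independent and the shares do not test for an excess. Proliferating array 5 was the outlying low one for ABCA1 at 8.82 (next 9.70), MYLIP at 7.30 (next 8.04) and SCD at 12.44 (next 12.84); without it the differences were -0.05, 0.53 and -0.73, with unchanged calls. Senescent array 5 was low for ELOVL5 at 11.85 and for FADS2 at 7.88, and high for PMVK at 8.75; without it these genes differed by -0.17, -0.11 and -0.09, and the call of FADS2 was lost. LSS was high on proliferating array 3, at 8.33. What set these arrays apart was not tested.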

How the results depend on the processing

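Over 23 alternatives, 596 of 636 gene values kept direction and call, 37 lost the call, 1 gained it (ELOVL6 at 0.17, averaged over its probe sets) and 2 changed sign: without probe sets marked as possibly shared, IDI1 was -0.30 and MYLIP -0.00023. The MYLIP value is near 0 and was not called, so it is a lost call and no fall. The IDI1 value came from 233014_at, of much lower signal (4.93 in senescent and 5.23 in proliferating cells). Leaving out possibly shared probe sets could be fitted for 20 of the 28 members only. Of 22 called members 14 kept their call in every alternative run for them, which for ACLY, DHCR7 and SCD does not include that one. FADS2 lost it in 11, ACAT2 in 9, ELOVL5 in 8 and INSIG2 in 5. Without shared probe sets the median was 0.309, 1 fatty acid gene fell, and 5 probe sets fell and 16 rose. SCD and FADS2 had no tested probe set left in that fit, so they did not lose their fall. Counts without shared probe sets, here and for the neighbouring lists, rest on fewer probe sets, so smaller counts there need not mean weaker results. The median was 0.309 with housekeeping centring, where 42.9% and not 50.6% of all calls were higher, and 0.347 with the mean of probe sets. With the ACTB covariate 13 members rose and 4 fell, 1 cholesterol enzyme fell and 8 probe sets fell. The groups did not overlap in that covariate, so it cannot be told apart from group. With the replicate block 16 members rose and 4 fell, 1 of them a cholesterol enzyme, and ACAT2 and ELOVL5 lost their calls; own-number arrays were closest for 2 of 5. Leaving out each array in turn gave 3 to 6 members lower, 15 to 16 higher, 1 to 2 cholesterol enzymes lower and 9 to 10 higher, 1 to 3 fatty acid genes lower, medians of 0.355 to 0.462, and 11 to 14 probe sets lower and 30 to 32 higher. A fit with 1 probe set a gene gives no probe set count. The causes were not tested. Probe sets near background carry little information.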
